A study of Mus musculus with 10 samples.

Results

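The genes of the cytosolic ribosomal proteins were examined in RNA sequencing of C2C12 cells, a mouse myoblast line that forms myotubes when serum is lowered. A gene was included when its symbol in the deposited table followed the naming of cytosolic ribosomal proteins (*Rps* for the small subunit, *Rpl* or *Rplp* for the large one), when protein-coding transcripts were listed for it, and when it was neither an S6 kinase nor a named pseudogene. This gave 84 of the 55359 genes of the table, 32 of the small and 52 of the large subunit. They lie on 19 chromosomes, with 14 of them on chromosome 7.

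There were 2 groups of 5 libraries. Cells of the si-Control group received a control siRNA, described in the series as scrambled, and cells of the si-*Fndc1* group an siRNA against *Fndc1*, which encodes a secreted protein with fibronectin type III domains. According to the labels the siRNA was given at 100 nM and the cells were then kept in low serum for 4 days, whereas the description of the series gives a shorter time. The methods speak of independent experiments for the study in general and of fewer RNA-seq libraries than are described here. They do not say whether the 5 libraries of a group came from separate cultures, so the p-values measure the spread between these libraries, which may be technical. C2C12 is 1 cell line, and the siRNA acts on all transfected cells of a dish.

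A cytosolic ribosome is built from a small subunit, which reads the mRNA, and a large subunit, which joins amino acids and passes the growing chain through an exit tunnel. Each ribosomal protein is needed in about equal amounts, and its genes are among the most active of any cell. Their mRNAs as a rule begin with a C followed by a run of pyrimidines (a terminal oligopyrimidine tract), through which mTOR signaling and the protein LARP1 control their translation and stability. In muscle, the number of ribosomes is known to set how much protein a growing fibre can make.

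Library totals ranged from 66771605 to 75995168 counts for si-Control and from 56332844 to 72839369 counts for si-*Fndc1*. *Fndc1* had 27.8 ± 2.04 FPKM in si-Control and 20.9 ± 1.70 in si-*Fndc1* (SD, n = 5), a log2 fold change of -0.40 ± 0.07 (SE), with no overlap between the groups. With the correction for gene length and GC content described below, its log2 fold change was -0.22 (adjusted p = 0.0104 in edgeR). FPKM divides the count of a gene by its length in kilobases and by the size of the library. Of 14 markers of differentiated muscle all were detected, with a summed level of 4829 to 5448 FPKM for si-Control and 4641 to 5504 FPKM for si-*Fndc1*. Among these, 3 were called higher and 1 lower in si-*Fndc1*, beside 17.3% and 17.2% of all tested genes. The sum of 6 myoblast markers was 338 to 369.5 FPKM for si-Control and 301.5 to 342.6 FPKM for si-*Fndc1*. Of the 6, 1 was called higher and 2 lower, beside the same 17.3% and 17.2%. The sum of 14 hepatocyte markers, transcripts typical of liver, was 0.0561 to 6.16 FPKM for si-Control and 49.9 to 176 FPKM for si-*Fndc1*. Of the 14, 11 passed the filter on low values and all 11 were called higher, beside 17.3% of all tested genes. The filter is a mean over all 10 libraries, which such genes reach mainly through si-*Fndc1*, so the direction of these calls was largely fixed by it. The part of these transcripts in the results below was not tested. Summed markers of adipocytes, macrophages, endothelial cells and erythroid cells did not exceed 2.38 FPKM in any library, and those of neurons, nearly all from the tubulin gene *Tubb3*, were 30.6 to 37.9 FPKM. In bulk RNA, fewer cells of a type and less RNA per cell cannot be told apart.

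Most ribosomal protein genes were higher in si-*Fndc1*. The test (edgeR, quasi-likelihood, adjusted p under 0.05 over 13548 genes with a mean of at least 0.5 FPKM) covered 81 of the 84 genes, of which 56 rose, 4 fell and 21 were not called. The rise was called for 69.1% of the tested ribosomal protein genes, beside 17.3% of all tested genes. The fall was called for 4.94%, beside 17.2% of all tested genes. The median log2 fold change was 0.33 (a 1.26-fold higher level), with quartiles of 0.18 and 0.57, whereas the median over all tested genes was 0.004 with quartiles of -0.17 and 0.18. Of the 81 genes, 73 had a fold change above 0, and 22 had a log2 fold change of at least 0.5, which 6.2% of all tested genes reached.

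The counts of the 2 subunits were close. Of the 32 small-subunit genes 22 rose and 2 fell, with a median log2 fold change of 0.34. Of the 49 tested large-subunit genes 34 rose and 2 fell, with a median of 0.33. Every CPM value (counts scaled to library size with TMM factors) of si-*Fndc1* lay above every value of si-Control for 45 of the 81 genes, beside 12.8% of all tested genes, and below for 3 genes, beside 12.3%.

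**Figure D1:**
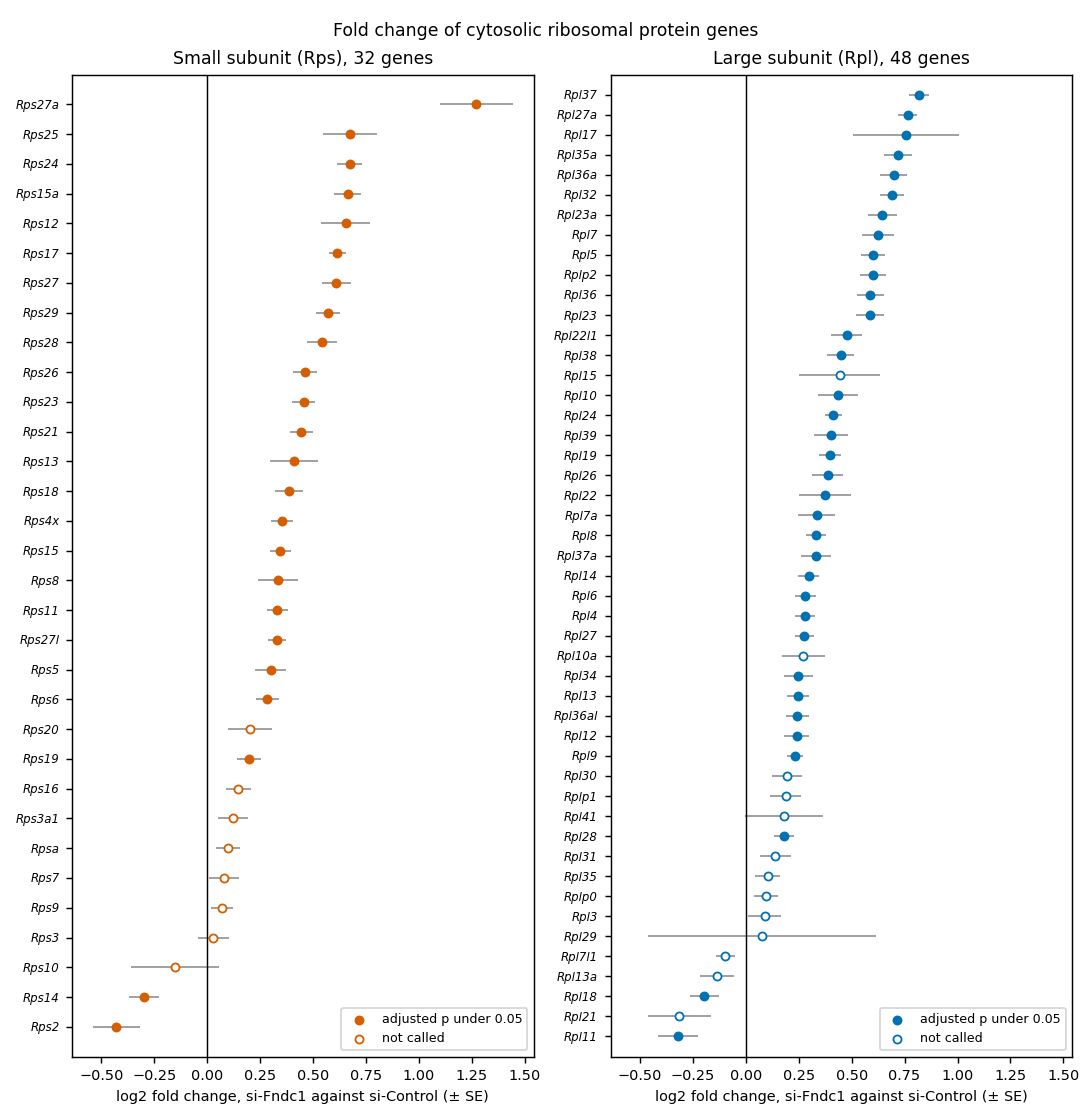
Log2 fold change of 80 of the 81 tested ribosomal protein genes in si-*Fndc1* against si-Control (x axis), with its SE as a bar, for the small (left) and the large subunit (right). Filled points passed the test at an adjusted p under 0.05; 55 of them lie to the right of 0 and 4 to the left, and *Rps27a* stands farthest right at 1.27.

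The shift was seen in every si-*Fndc1* library. The reads on the 84 genes made up 2.01% to 2.39% of a library's count in si-Control and between 2.45% and 2.76% in si-*Fndc1*, and the means were 2.14% ± 0.148 and 2.64% ± 0.1295 (SD, n = 5). When each gene's log2 CPM was set against its si-Control mean, the median over the 81 genes was -0.011, 0.165, -0.007, -0.098 and -0.033 in si-Control libraries 1 to 5. It was 0.268, 0.240, 0.370, 0.426 and 0.378 in si-*Fndc1* libraries 1 to 5. The si-Control library 2 was the highest of its group and si-*Fndc1* library 2 the lowest of its own, and the groups did not overlap. Values by library are given below in the order of these numbers.

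**Figure D2:**
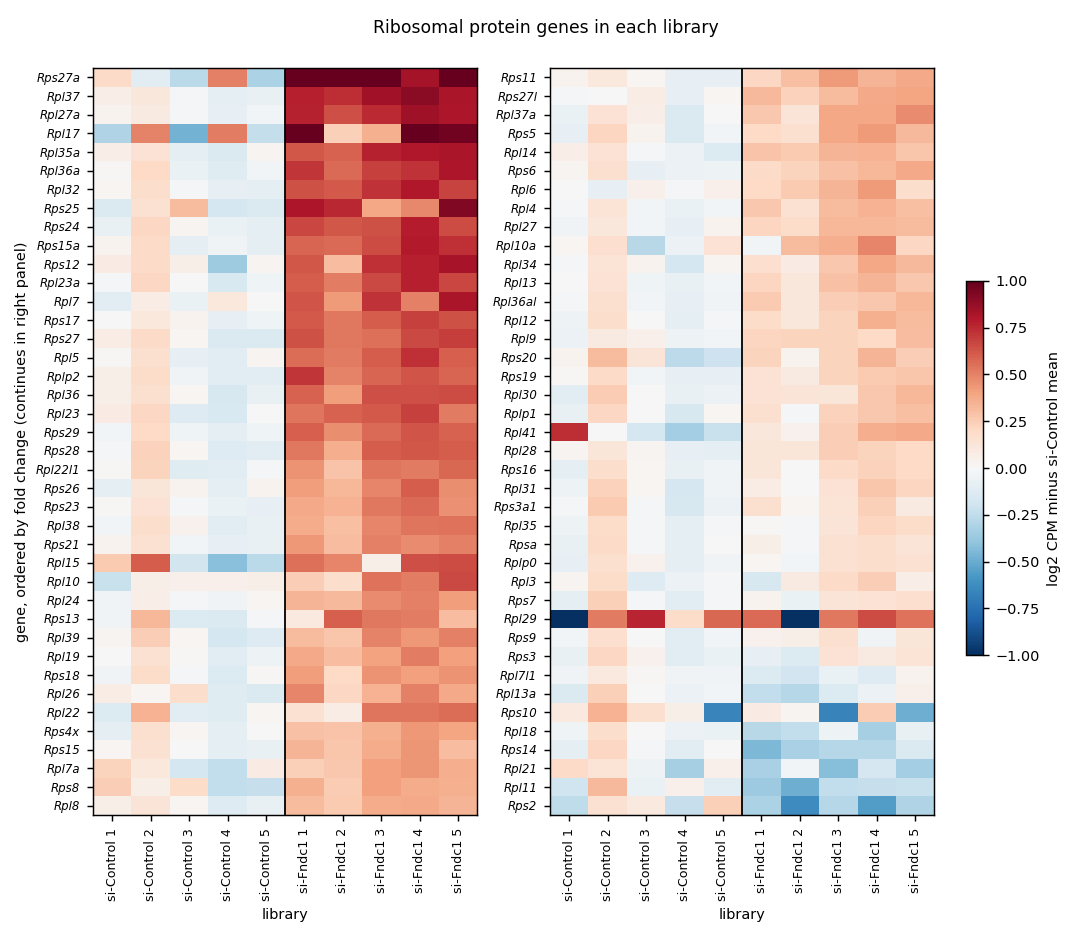
Log2 CPM of 80 of the 81 tested genes (rows, from the largest rise to the largest fall, continued in the right panel) in each of the 10 libraries (columns), minus the gene's si-Control mean. Red is higher and blue lower, and the colour is clipped at 1 in either direction; most rows turn red in all 5 si-*Fndc1* libraries, while *Rpl29*, *Rps10* and *Rpl41* change between libraries of one group.

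The largest rise was that of *Rps27a*, which encodes a fusion of ubiquitin with a protein of the small subunit's beak (chr11:29495846-29497891, minus strand; coordinates are those of the deposited table, for which the submitters' notes name GRCm39). Its level was 66.2, 53.7, 48.1, 82.7 and 46.5 FPKM in si-Control and 156, 140.4, 152, 103 and 163 FPKM in si-*Fndc1*. Every si-*Fndc1* library was above every si-Control library, and si-Control library 4 and si-*Fndc1* library 4 came closest to each other. The log2 fold change was 1.27 ± 0.17 (SE, adjusted p = 0.000287). *Rps27a* reads can also fall on its pseudogenes, which held 11.5% to 56.1% of the reads of the gene and its named pseudogenes together. With those reads added to the gene, the log2 fold change was 0.83 (adjusted p = 5.08e-06).

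*Rpl37*, a small zinc-binding protein of the large subunit (chr15:5146127-5148622), had 115, 119, 109, 104 and 104 FPKM in si-Control and 189, 182, 195, 203 and 195 FPKM in si-*Fndc1*. No named pseudogene of it drew reads, the libraries of each group lay close together, and the groups were far apart. Its log2 fold change was 0.82 ± 0.05 (SE, adjusted p = 5.57e-06). *Rpl27a*, a large-subunit protein (chr7:109118354-109121574), had 54.4, 56.8, 52.9, 50.7 and 52.2 FPKM in si-Control and 91.2, 82.7, 88.5, 95.0 and 94.1 FPKM in si-*Fndc1*. The groups did not overlap, and the log2 fold change was 0.77 ± 0.04 (SE, adjusted p = 5.64e-06).

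*Rpl35a*, whose human counterpart is one of the genes mutated in Diamond-Blackfan anaemia (chr16:32876823-32880559), had 36.0, 38.2, 32.4, 31.4 and 35.2 FPKM in si-Control. It had 53.1, 51.5, 58.05, 59.7 and 61.2 FPKM in si-*Fndc1*, all above the si-Control libraries. The log2 fold change was 0.72 ± 0.07 (SE, adjusted p = 3.34e-05). *Rpl32*, also of the large subunit (chr6:115782466-115785708), was a more abundant mRNA, with 254, 284, 248, 239 and 236 FPKM in si-Control and 391.5, 382, 411, 435 and 405 FPKM in si-*Fndc1*. Its groups were likewise apart, with a log2 fold change of 0.69 ± 0.06 (SE, adjusted p = 2.0e-05). *Cand2*, on the opposite strand, overlaps *Rpl32* and had a mean count of 4633 beside 24520 for *Rpl32*.

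*Rpl36a* encodes a protein at the site where tRNA leaves the ribosome and lies on the X chromosome (chrX:133486403-133488811). It had 42.6, 48.7, 40.4, 39.0 and 41.6 FPKM in si-Control and 69.5, 62.3, 67.4, 69.2 and 74.7 FPKM in si-*Fndc1*. All 5 si-*Fndc1* libraries were higher, with a log2 fold change of 0.70 ± 0.06 (SE, adjusted p = 3.34e-05).

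*Rps25*, a protein of the small subunit's head (chr9:44318436-44321724), had 36.1, 44.5, 50.02, 35.5 and 36.2 FPKM in si-Control. It had 70.2, 67.1, 51.8, 55.5 and 76.85 FPKM in si-*Fndc1*, where library 3 came within 2 FPKM of the highest si-Control library. Its log2 fold change was 0.67 ± 0.13 (SE, adjusted p = 0.00201). *Rps25* overlaps 2 genes on the opposite strand, and whether the counting used strand is not stated in the sources used here.

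**Figure D3:**
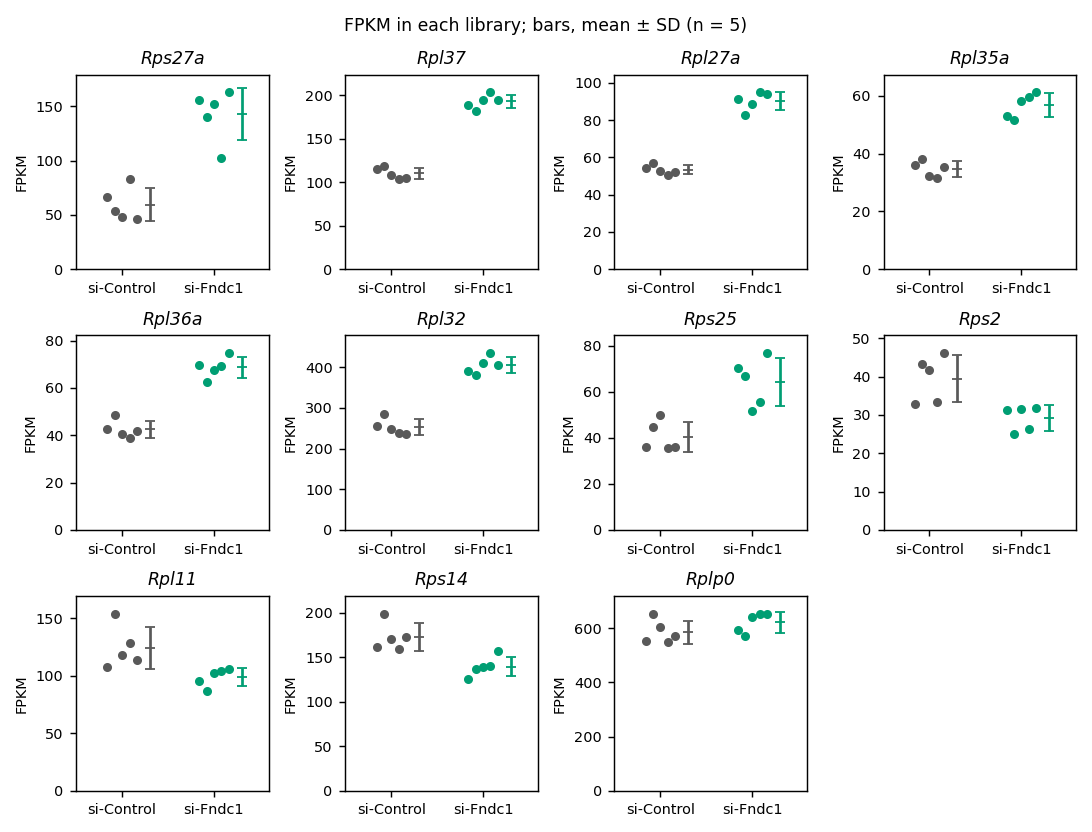
FPKM (y axis, from 0) in each library for 7 of the largest rises and the 3 falls with no overlap between the groups, and for *Rplp0*, whose change was not called. Points are the 5 libraries of a group in the order of their numbers and bars the mean ± SD; the si-*Fndc1* points of the first 7 genes lie above, those of *Rps2*, *Rpl11* and *Rps14* below, and those of *Rplp0* among the si-Control points.

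The 4 genes that fell were *Rps2*, *Rpl11*, *Rps14* and *Rpl18*. *Rps2*, which lines the channel where mRNA enters the small subunit (chr17:24937090-24940903), had 32.8, 43.4, 41.9, 33.4 and 46.15 FPKM in si-Control and 31.3, 24.98, 31.6, 26.3 and 31.9 FPKM in si-*Fndc1*. The groups did not overlap, but the lowest si-Control library and the highest si-*Fndc1* library were within 1 FPKM. The log2 fold change was -0.43 ± 0.11 (SE, adjusted p = 0.0118). Named *Rps2* pseudogenes held 78.9% to 95.8% of the reads of the gene and its pseudogenes together. With these reads added, the log2 fold change was -0.43 with an adjusted p of 0.548 in edgeR, so that the fall was not called.

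*Rpl11*, which with *Rpl5* and the 5S rRNA forms a particle that can bind the p53 regulator MDM2 (chr4:135755576-135780739), had 107, 154, 118, 128 and 113 FPKM in si-Control. It had 95.4, 87.1, 102, 104 and 106 FPKM in si-*Fndc1*, all below si-Control, with a log2 fold change of -0.32 ± 0.09 (SE, adjusted p = 0.0208). *Rpl5*, its partner (chr5:108048368-108056871), moved in the other direction. It had 95.6, 106, 89.5, 87.9 and 96.6 FPKM in si-Control and 139.5, 135, 142, 156 and 144 FPKM in si-*Fndc1*. Its groups did not overlap either, and the log2 fold change was 0.60 ± 0.06 (SE, adjusted p = 4.02e-05). The difference between the changes of the 2 genes was not tested.

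*Rps14*, a protein near the decoding centre whose human counterpart is lost in the 5q- syndrome (chr18:60880170-60911618), had 161, 199, 171, 159 and 172.5 FPKM in si-Control. It had 126, 136, 139, 139.9 and 156.5 FPKM in si-*Fndc1*, again all lower, with a log2 fold change of -0.30 ± 0.07 (SE, adjusted p = 0.00681). *Ndst1*, on the opposite strand, overlaps *Rps14* and had a mean count of 11720 beside 29060 for *Rps14*. *Rpl18*, of the large subunit, had 51.0, 59.6, 52.6, 50.8 and 50.2 FPKM in si-Control and 43.5, 44.1, 50.2, 41.5 and 50.4 FPKM in si-*Fndc1*. Its groups overlapped, the log2 fold change was -0.20 ± 0.07 (SE, adjusted p = 0.0427), and the call was lost in 7 of the 10 fits that left out 1 library. *Sphk2*, also on the opposite strand, overlaps *Rpl18* and had a mean count of 1967 beside 15550 for *Rpl18*.

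By position in the ribosome, the share of called genes varied, and the classes are small. Over all tested genes, 17.3% were called higher and 17.2% lower. In the stalk of the large subunit, which recruits elongation factors, *Rplp2* and *Rpl12* rose and *Rplp0* and *Rplp1* were not called. *Rplp2* had a log2 fold change of 0.60 ± 0.06 (SE, adjusted p = 5.74e-05), from 79.7 ± 6.95 to 120.3 ± 6.93 FPKM (SD, n = 5). *Rplp0* had 551, 651, 603, 551 and 570.0 FPKM in si-Control and 592, 569.5, 641, 653 and 651 FPKM in si-*Fndc1*. These ranges nearly coincide, and the log2 fold change was 0.09 ± 0.06 (SE, adjusted p = 0.234). *Rplp1*, with the highest mean FPKM of all 84 genes, had 1136 ± 108 FPKM in si-Control and 1288 ± 114 in si-*Fndc1* (SD, n = 5; log2 fold change 0.19 ± 0.08, SE, adjusted p = 0.0769). Without si-Control replicate 2 its adjusted p in edgeR was 0.0206, and without si-*Fndc1* replicate 2 it was 0.0214.

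Of the 8 proteins that line or surround the exit tunnel (*Rpl4*, *Rpl17*, *Rpl19*, *Rpl23a*, *Rpl26*, *Rpl31*, *Rpl35* and *Rpl39*), 6 rose and none fell, with a median log2 fold change of 0.39. *Rpl17* (0.76 ± 0.25, SE, adjusted p = 0.0366) lost its call in 6 of the 10 fits that left out 1 library, and named pseudogenes held most of its joint reads. Of 5 proteins at the peptidyl transferase centre and the tRNA sites, 4 rose, and *Rpl3* (0.09 ± 0.08, SE, adjusted p = 0.41) was not called. *Rpl10*, which is added late to the large subunit and reaches toward the A site, had 72.7, 88.4, 87.8, 88.4 and 88.2 FPKM in si-Control and 101, 95.3, 122, 119.7 and 135 FPKM in si-*Fndc1*. Its si-*Fndc1* libraries were all higher, with a log2 fold change of 0.44 ± 0.09 (SE, adjusted p = 0.00457).

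Of 9 proteins of the mRNA channel and the decoding centre, 5 rose and 2 (*Rps2* and *Rps14*) fell, beside 17.3% and 17.2% of all tested genes. With named pseudogene reads added, the fall of *Rps2* was not called. *Rps15*, the second most abundant mRNA of the set by mean FPKM over all libraries, belonged to those that rose, from 577 ± 39.8 to 729 ± 29.5 FPKM (SD, n = 5), with a log2 fold change of 0.35 ± 0.05 (SE, adjusted p = 0.000465). In the beak, *Rps27a* and *Rps12* rose, and *Rps10* was not called.

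*Rps6*, the target of the S6 kinases (chr4:86772897-86775649), had 250.4, 275, 232.5, 238 and 237 FPKM in si-Control and 281.5, 284, 298, 307 and 321 FPKM in si-*Fndc1*. The groups were separated by a narrow margin, with a log2 fold change of 0.28 ± 0.05 (SE, adjusted p = 0.0022). *Rpsa*, also known as a laminin receptor, had 217 ± 17.2 FPKM in si-Control and 231 ± 12.2 in si-*Fndc1* (SD, n = 5), and its log2 fold change of 0.10 ± 0.06 (SE) was not called (adjusted p = 0.21). Without si-Control replicate 2, its highest control library, the adjusted p in edgeR was 0.0275.

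Across the 81 genes the Spearman correlation of the log2 fold change with the mean FPKM was -0.004 (genes are not independent replicates). Of the 5 with the highest mean FPKM, *Rps15*, *Rpl8* and *Rpl36* rose, and *Rplp1* and *Rplp0* were not called. *Rpl8*, near the peptidyl transferase centre, went from 407 ± 28.5 to 510.0 ± 16.03 FPKM (SD, n = 5; log2 fold change 0.33 ± 0.05, SE, adjusted p = 0.000491). *Rpl36* went from 334 ± 28.2 to 499.7 ± 34.15 FPKM (SD, n = 5; log2 fold change 0.59 ± 0.07, SE, adjusted p = 9.31e-05).

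Of the 5 tested genes with the lowest mean FPKM, *Rps15a* and *Rps18* rose, and *Rpl7l1*, *Rpl29* and *Rpl21* were not called. A rank by FPKM depends on the gene length used. For *Rps15a* the length was 6973 bases, and it had at least 9119 reads in every library, whereas *Rpl26* had at most 5502. *Rps15a* had 21.0 ± 1.81 FPKM in si-Control and 33.15 ± 2.27 in si-*Fndc1* (SD, n = 5), a log2 fold change of 0.66 ± 0.06 (SE, adjusted p = 4.55e-05). *Rps18* had 22.3 ± 1.80 and 29.0 ± 2.10 FPKM (SD, n = 5), a log2 fold change of 0.39 ± 0.07 (SE, adjusted p = 0.00109), and at least 84.7% of the reads of the gene and its named pseudogenes lay on the pseudogenes in every library.

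*Rpl21* was listed at 0.837, 0.802, 0.69, 0.546 and 0.742 FPKM in si-Control and at 0.546, 0.696, 0.493, 0.613 and 0.541 FPKM in si-*Fndc1*. These ranges overlap, and its log2 fold change of -0.31 ± 0.15 (SE) was not called (adjusted p = 0.126; without si-Control replicate 4, -0.40 and adjusted p = 0.0465). Its named pseudogenes held 91.7% to 97.0% of the joint reads, and with them added the log2 fold change turned to 0.67 (adjusted p = 2.13e-05).

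Several members have a near relative in the table. *Rpl22*, without which mice are viable, had 38.15, 53.4, 39.0, 38.6 and 42.4 FPKM in si-Control and 46.6, 43.7, 60.1, 60.2 and 62.3 FPKM in si-*Fndc1*. The groups overlapped through si-Control library 2, the log2 fold change was 0.38 ± 0.12 (SE, adjusted p = 0.0373), and the call was lost in 7 of the 10 fits that left out 1 library. *Rpl22l1*, its paralog, had 24.3 ± 2.39 and 33.6 ± 2.65 FPKM (SD, n = 5) and a log2 fold change of 0.48 ± 0.07 (SE, adjusted p = 0.000677), so that both genes of the pair were called higher.

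*Rps27* (0.61 ± 0.07, SE, adjusted p = 9.12e-05) and *Rps27l* (0.33 ± 0.04, SE, adjusted p = 0.000195), a paralog known as a p53 target, both rose on the log2 scale. So did *Rpl36a* (0.70) and *Rpl36al* (0.24 ± 0.05, SE, adjusted p = 0.00491). With a correction for gene length and GC content, *Rps27l* had a log2 fold change of -0.09 (adjusted p = 0.191 in edgeR) and *Rpl36al* one of 0.06 (adjusted p = 0.317 in edgeR), and neither was called. *Rpl7* rose (0.63 ± 0.07, SE, adjusted p = 0.000138), whereas *Rpl7l1* had a log2 fold change of -0.10 ± 0.05 (SE, adjusted p = 0.127) and was not called (without si-*Fndc1* replicate 5, -0.13 and adjusted p = 0.0309). *Rps4x*, which is X-linked, rose by 0.35 ± 0.05 (SE, adjusted p = 0.000541), and *Rpl39* by 0.40 ± 0.08 (SE, adjusted p = 0.00267). Differences within these pairs were not tested.

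The 3 genes below the filter were paralogs of restricted expression. *Rpl3l*, known from adult heart and skeletal muscle, had 13 reads in si-*Fndc1* library 2 and 0 in the other 9 libraries. *Rpl39l*, known from male germ cells, had 4 reads in si-Control library 1, 15 in si-*Fndc1* library 1, 9 in si-*Fndc1* library 2 and 0 in the others. *Rpl10l*, known from testis, had 0 reads in all 10 libraries, which allows a level of up to 0.0395 to 0.0533 CPM per library (3 counts, counting error only).

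**Figure D4:**
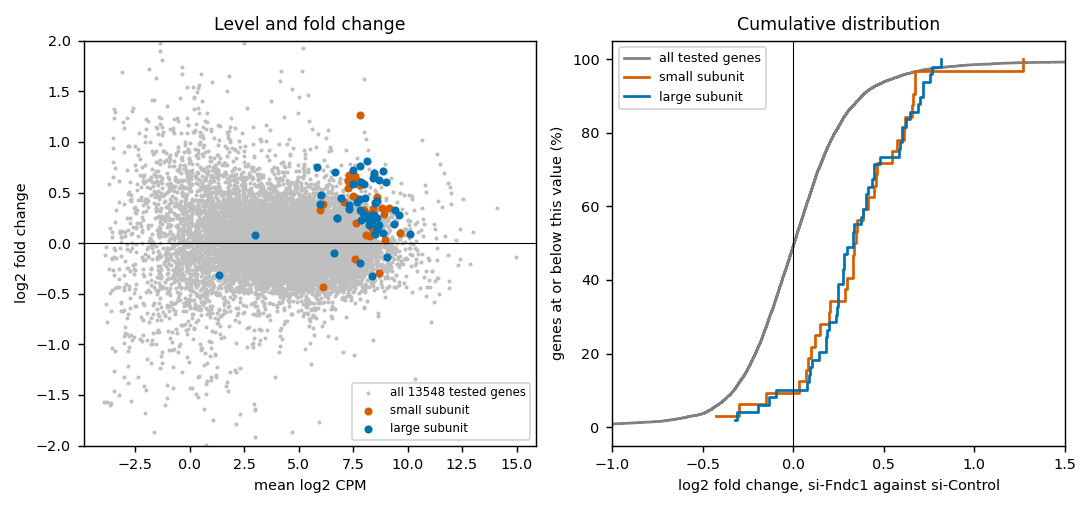
Left, log2 fold change (y axis) against mean log2 CPM (x axis) for all 13548 tested genes in grey and the 81 tested ribosomal protein genes in colour; 105 grey genes beyond 2 in either direction are outside the panel. Right, the percentage of genes (y axis) at or below each log2 fold change (x axis); the curves of both subunits lie to the right of that of all tested genes and close to each other.

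The spread between libraries of one group was like that of other genes for most members, with a median SD of log2 CPM of 0.113 beside 0.122 over all tested genes. It was above 0.2 for 10 genes, among them *Rpl29*, *Rpl17*, *Rps10*, *Rpl15*, *Rpl41*, *Rps27a*, *Rps25*, *Rpl22* and *Rps12*, which were singled out after their values were seen. *Rpl29*, a large-subunit protein, had 0.941, 7.46, 8.91, 5.875 and 7.76 FPKM in si-Control and 7.74, 1.48, 7.42, 8.17 and 7.65 FPKM in si-*Fndc1*. Thus 1 library of each group was several-fold below the rest, and the log2 fold change of 0.08 ± 0.54 (SE) was not called (adjusted p = 0.93).

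*Rps10* had 81.0, 96.8, 84.95, 79.45 and 48.0 FPKM in si-Control and 80.6, 76.8, 47.2, 89.98 and 54.4 FPKM in si-*Fndc1*. It was low in 1 si-Control and 2 si-*Fndc1* libraries (log2 fold change -0.15 ± 0.21, SE, adjusted p = 0.609). *Rpl41*, the shortest ribosomal protein, had 473, 284, 251.9, 225 and 244 FPKM in si-Control and 308, 291, 333, 363 and 372 FPKM in si-*Fndc1*. Library 1 of si-Control stood above all others, and the log2 fold change was 0.18 ± 0.19 (SE, adjusted p = 0.488). Without that library it was 0.42 and was called (adjusted p = 0.00563 in edgeR).

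Reads of ribosomal protein mRNAs can be shared with pseudogenes, which are processed copies of the mRNA. The table lists 320 pseudogenes named after a member, for 63 of the 84 genes, and they drew 0.32% to 0.491% of a library's count in si-Control and between 0.388% and 0.523% in si-*Fndc1*. In si-Control they held over 25% of the joint reads for 16 genes and over 50% for 6. Of the 155 pseudogenes that were tested, 52 were called higher and 1 lower, beside 17.3% and 17.2% of all tested genes, with a median log2 fold change of 0.40. Because reads can be shared, these counts are not separate from those of the members. For the 47 genes with under 5% of the joint reads on named pseudogenes in every library, 33 rose and 3 fell, and the median was 0.33, as for all 81. Any pseudogene listed under another name was not counted, here or in the sums that follow. When the reads of each gene and its named pseudogenes were summed, 58 genes were called higher and 2 lower (*Rps14* and *Rpl11*), with a median of 0.34. *Rpl21* and *Rpl30* gained a call for a rise, and *Rps2* and *Rpl18* lost that for a fall.

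Gene length and GC content moved with the fold changes of all genes. Over all tested genes with a value, the Spearman correlation of the log2 fold change was -0.197 with gene length (13522 genes) and -0.523 with GC content (11185 genes), and over the ribosomal protein genes it was -0.19 (81 genes) and -0.33 (79 genes). Members were shorter than other tested genes, with a median of 1980 bases beside 4237, and had a median GC content of 50.7% beside 50.5%. After correction for both within each library, 49 of 79 genes (62.0%) were called higher, beside 11.3% of the 11185 genes, and 4 were called lower, beside 11.4%. The median was then 0.26, and 47 of the 55 higher calls with a GC value were kept.

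Calls for a rise of *Rpl9*, *Rpl17*, *Rpl22*, *Rpl36al*, *Rpl37a*, *Rps6*, *Rps13* and *Rps27l* were lost with the correction. *Rpl18* lost its call for a fall (-0.13, adjusted p = 0.17 in edgeR). *Rps6* then had a log2 fold change of 0.11 (adjusted p = 0.054 in edgeR). *Rpl10a* and *Rpl30* gained a call for a rise and *Rpl7l1* one for a fall (-0.14, adjusted p = 0.0335 in edgeR). The largest rises stayed, with *Rps27a* at 1.118, *Rpl27a* at 0.66 and *Rpl37* at 0.62, and *Rps2*, *Rpl11* and *Rps14* stayed called lower at -0.43, -0.32 and -0.27.

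**Figure D5:**
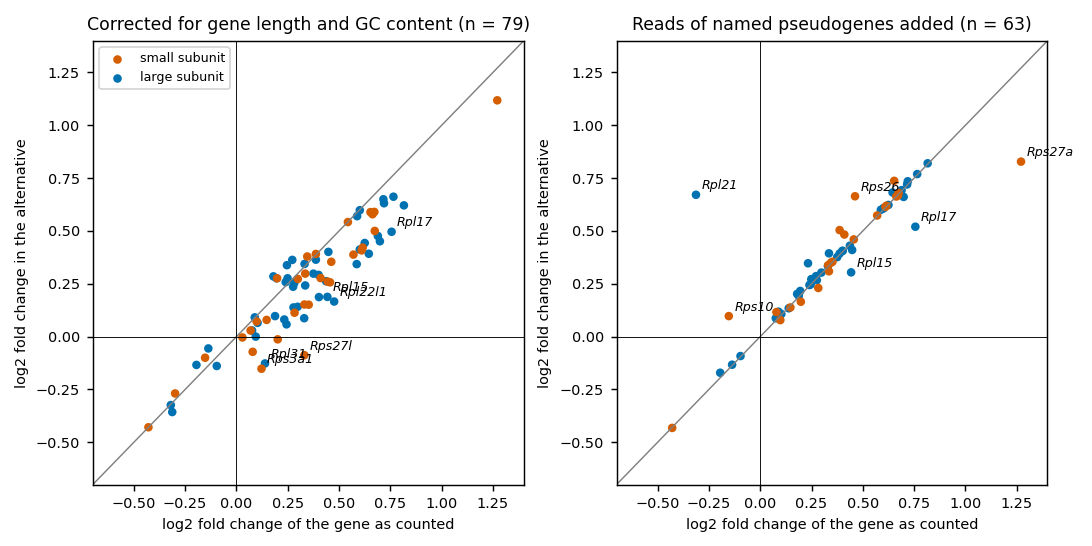
Log2 fold change of each gene as counted (x axis) against its value after correction for gene length and GC content (left, 79 genes) and with the reads of named pseudogenes added (right, the 63 genes with such pseudogenes); the line marks equal values and the 6 genes farthest from it in each panel are named. Most points in the left panel lie below the line and above 0, and in the right panel *Rpl21* crosses from -0.31 to 0.67 and *Rps27a* moves from 1.27 to 0.83.

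To show the start that marks these mRNAs, the 30 bases around the transcription start were read for members that have a promoter in the RefSeq table of GRCm38.p6, which holds 64 of the 84. A tract was counted where a C followed by at least 4 bases, each C or T, began within 5 bases of the listed start. It was present in 29 of the 64 (45.3%), beside 21.2% of the 27025 genes of the table. Of the 29 members with a tract 21 rose and 2 fell, with a median log2 fold change of 0.39, and of the 32 tested members without one at the listed start 22 rose and 1 fell, with a median of 0.28. The listed start of a gene is 1 of several it can use, so the absence of a tract says only that these letters are not at that position. The 5 members with a tract that rose most and the 5 at the other end are shown from 10 bases before the start, with the tract in capitals, on the strand of the gene.
*Rpl27a* (chr7:109519185-109519214, plus strand): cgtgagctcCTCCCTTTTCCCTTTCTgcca
*Rpl35a* (chr16:33056472-33056501, plus strand): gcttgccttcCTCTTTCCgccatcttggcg
*Rps24* (chr14:24490668-24490697, plus strand): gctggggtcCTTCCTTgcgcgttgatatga
*Rps15a* (chr7:118116128-118116157, minus strand): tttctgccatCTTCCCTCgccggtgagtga
*Rps27* (chr3:90213629-90213658, minus strand): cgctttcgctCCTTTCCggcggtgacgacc
*Rps9* (chr7:3704031-3704060, plus strand): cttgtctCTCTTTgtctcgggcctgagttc
*Rpl13a* (chr7:45128726-45128755, minus strand): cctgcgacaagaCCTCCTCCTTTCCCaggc
*Rps10* (chr17:27635225-27635254, minus strand): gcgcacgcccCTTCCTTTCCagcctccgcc
*Rpl18* (chr7:45718061-45718090, plus strand): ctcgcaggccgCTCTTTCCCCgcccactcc
*Rps2* (chr17:24720053-24720082, plus strand): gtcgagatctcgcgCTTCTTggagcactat

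Tracts of like length stood at both ends of the order. *Rps10* has a tract of 10 bases that begins at the listed start, and *Rpl35a*, with a log2 fold change of 0.72, one of 8 bases. The log2 fold change of *Rps10*, -0.15 ± 0.21 (SE), was not called (adjusted p = 0.609 in edgeR). With named pseudogenes added it was 0.10. In the full windows of 300 bases, the motif CCGGAAG, the core bound by ETS factors such as GABP, was found on either strand in 26 of the 64 members (40.6%), beside 9.93% of all genes of the table. The motif ATGGCG, the core bound by YY1, was found in 21 (32.8%), beside 10.2%, and each motif was counted on its own. On the other strand CCGGAAG reads CTTCCGG, whose first letters can also be counted as a pyrimidine tract. Of the 25 tested members with CCGGAAG 15 rose, with a median log2 fold change of 0.33, and of the 36 without it 28 rose, also with a median of 0.33. A match is a description of the letters and not a site.

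Some ribosomal proteins have genes with other names. *Fau*, a ubiquitin-like fusion with a small-subunit protein (log2 fold change 0.10 ± 0.05, SE, adjusted p = 0.167), and *Rack1*, a scaffold on the small subunit (log2 fold change 0.22 ± 0.12, SE, adjusted p = 0.189), were not called.

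Other genes of ribosome production were called in both directions. Of 54 tested genes of ribosome biogenesis, 13 rose (24.1%) and 7 fell (13.0%), beside 17.3% and 17.2% of all tested genes, with a median log2 fold change of 0.03. The smallest p-values were those of nucleolin (*Ncl*, 0.26 ± 0.03, SE, adjusted p = 6.69e-05), nucleophosmin (*Npm1*, 0.40 ± 0.05, SE, adjusted p = 0.000211) and *Noc3l* (0.29 ± 0.04, SE, adjusted p = 0.000609). After the correction for gene length and GC content, *Ncl* (0.19, adjusted p = 0.00189 in edgeR) and *Npm1* (0.14, adjusted p = 0.0349 in edgeR) stayed called higher. *Noc3l* (0.12, adjusted p = 0.0782 in edgeR) was then not called. Of 20 other mRNAs known to begin with a terminal oligopyrimidine tract, 8 rose (40.0%) and 4 fell (20.0%), beside the same 17.3% and 17.2%, with a median of 0.08. The elongation factor *Eef2* fell from 1170 ± 27.9 to 896 ± 22.3 FPKM (SD, n = 5; log2 fold change -0.38 ± 0.03, SE, adjusted p = 1.82e-05), whereas *Eif3l* (0.32 ± 0.03, SE, adjusted p = 2.03e-05) and *Nap1l1* (0.37 ± 0.03, SE, adjusted p = 2.82e-05) rose. All 3 stayed called after the same correction, with log2 fold changes of -0.24 for *Eef2*, 0.33 for *Eif3l* and 0.14 for *Nap1l1*.

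Of 28 tested regulators of ribosomal protein mRNAs and genes, among them mTOR signaling genes and transcription factors, 4 rose (14.3%) and 10 fell (35.7%), beside 17.3% and 17.2% of all tested genes, with a median log2 fold change of -0.08. *Larp1*, which binds the tract at the start of these mRNAs, fell from 19.5 ± 1.11 to 14.4 ± 0.363 FPKM (SD, n = 5; log2 fold change -0.43 ± 0.04, SE, adjusted p = 3.725e-05). *Rps6kb1*, an S6 kinase, rose by 0.21 ± 0.03 (SE, adjusted p = 0.000365), and the kinase *Akt1* had a log2 fold change of -0.18 ± 0.03 (SE, adjusted p = 0.000386). With the correction for gene length and GC content *Larp1* stayed called lower (-0.30, adjusted p = 0.000128), and *Rps6kb1* (0.05, adjusted p = 0.264) and *Akt1* (0.05, adjusted p = 0.149) were no longer called in edgeR.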

How the data were processed

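RNA of 10 C2C12 libraries, 5 per group, was sequenced after poly(A) selection. The authors counted reads per gene and deposited the counts without normalization. They also deposited an FPKM value for each count, in which the count is divided by a gene length and the library size. The methods name TopHat, mm10 and htseq-count, the series description STAR and mm9, and the submitters' notes GRCm39. Groups came from the labels. The members and lists were chosen with earlier results of these data known. Of the rule, "protein coding" was read as having protein-coding transcripts among others (84 genes), since 12 genes list no other kind.

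Differential expression was tested with edgeR 4.0.16 (TMM, quasi-likelihood, R 4.3.3) for all genes with a mean of at least 0.5 FPKM, with Benjamini-Hochberg adjustment over 13548 genes. Alternatives were DESeq2 1.42.0, limma 3.58.1 on log2(FPKM + 1) or log2(FPKM + 0.1), other scalings and filters, a replicate block, trends with length and GC content (GC from NCBIM37 transcripts, for 82.6% of tested genes), pseudogene reads added, and leaving out each library. The fit was tested on simulated data. Named were the 8 largest rises and up to 8 largest falls without overlap between the groups. The rule also named the 5 tested members with the highest and the 5 with the lowest mean FPKM, and untested members. It further named members with a role set by hand, paralog pairs, and the 3 smallest p-values of each list. Other members were named to complete a class or count, and some items that this rule would name are not reported here. Intervals from counts cover counting error only.

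Same-numbered libraries did not deviate together (correlations of -0.043 to 0.055), so numbers were not taken as pairs. No 2 libraries of a group were near copies of each other (20 pairs, lowest chi-square 41.3 times its degrees of freedom). With 5 libraries a group, the spread between libraries limits the precision.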

Additional observations from a re-analysis of the deposited data

Results flagged for a closer look

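In 6 of the 70 groups of 5 libraries examined for the named members, 1 library stood apart from the other four by Dixon's criterion (gap divided by range above 0.71), of which chance flags about 1 in 20. In si-Control, library 2 was the highest for *Rpl22* (53.4 FPKM, the others 38.15 to 42.4, ratio 0.722), *Rpl36al* (72.9, the others 61.7 to 64.4, ratio 0.76) and *Rpsa* (246, the others 204 to 215, ratio 0.736). In the same group library 1 was the lowest for *Rpl10* (72.7 FPKM, the others 87.8 to 88.4, ratio 0.963). In si-*Fndc1*, library 2 was the lowest for *Rpl29* (1.48 FPKM, the others 7.42 to 8.17, ratio 0.887) and for *Rps18* (25.3 FPKM, the others 29.4 to 30.5, ratio 0.779).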

How the results depend on the processing

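The number of members called higher was 56 and stayed between 42 and 59 in the other fits on all 10 libraries, and between 53 and 66 when 1 library was left out, where the 66 came without si-Control replicate 2. The median log2 fold change was 0.33 and stayed between 0.25 and 0.35, and between 0.30 and 0.36 with 1 library left out. The number called lower was 4. It was 2 with the replicate block, 2 with the length and GC correction together with the replicate block, and 2 with named pseudogenes added. It was 3 with upper-quartile scaling, 3 without the filter on low values, and 3 to 5 with 1 library left out. With the replicate block 50 members were called higher (42 with the length and GC correction and the replicate block), the falls of *Rpl11* (adjusted p = 0.0648 in edgeR) and *Rpl18* (0.0703) were not called, and only 1 of the 5 si-Control libraries correlated best with its own number.

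Among the named members, signs turned for *Rpl21* with pseudogenes added (0.67), for *Rpl29* and *Rplp0* with the length correction (-0.08 and -0.00), and for *Rps27l* with the length and GC correction, with and without the replicate block (-0.09 in both). Among the other members, none of which had been called, the length and GC correction turned *Rpl31* (-0.13), *Rps3a1* (-0.15), *Rps7* (-0.07), *Rps20* (-0.01) and *Rps3* (-0.00), the length correction alone turned *Rps3a1* and *Rpl35*, and added pseudogenes turned *Rps10* (0.10). With 1 library left out *Rpl29* ranged from -0.20 to 0.33. Causes were not tested, except that added pseudogene reads outnumber those of *Rpl21*. Of the 489 values of the 35 named and tested members in the other fits on all 10 libraries, 467 kept direction and call. Depth does not limit the tested members, which had at least 90 reads in every library, but it does limit *Rpl3l*, *Rpl39l* and *Rpl10l*.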
